A study of Bos taurus with 4 samples.

Results

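The voltage-gated, TRP and CatSper ion channels were followed on 4 microarrays of sperm RNA from Murrah buffalo breeding bulls. The members were taken by gene symbol from the names printed on the array: KCN potassium channels and their accessory subunits, CACN calcium channels, SCN sodium channels, HCN and CLCN channels, the proton channel HVCN1, TRPA, TRPC, TRPM and TRPV channels and the CATSPER genes. This rule found 283 probes for 156 genes, out of 51282 probes for 32429 gene names. No measured value entered the rule. Of the 156 genes, 71 had 1 probe, 60 had 2 and 25 had 3 or more.

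The groups were high-fertile bulls, with 2 arrays, and low-fertile bulls, with 2 arrays. All bulls were breeding bulls, and fertility class was the only difference the labels gave between the groups. Per the study's methods, spermatozoa were selected on a Percoll gradient and each array held RNA pooled from 2 bulls, so that the pool is the replicate and the p-values measure the spread between pools. Total RNA was primed with oligo-dT, amplified by T7 transcription, labelled with Cy3 and hybridised to an array designed on cattle sequence. A buffalo transcript that differs from the cattle probe can therefore lose signal, in both groups alike. In bulk RNA, fewer cells of a type and less RNA per cell cannot be told apart.

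Ion channels set the membrane potential and the calcium level of spermatozoa. CatSper is the calcium channel of the sperm flagellum, opened by a rise in intracellular pH and needed for hyperactivated swimming. KCNU1 carries the potassium current that hyperpolarises sperm during capacitation, and HVCN1 lets protons leave the cell. Mature spermatozoa are largely silent in transcription, so that their RNA is mostly what spermatogenesis left behind. Most other genes of the set are best known from nerve, muscle and epithelia.

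The 7 probes for the CatSper pore genes, KCNU1 and HVCN1 are shown first, because these are the channels with an established role in spermatozoa and the results below depend on what these 60 bases can catch. Each is printed 5′ to 3′ as given by the array design, and capitals mark runs of 4 or more G or C bases.
CATSPER1: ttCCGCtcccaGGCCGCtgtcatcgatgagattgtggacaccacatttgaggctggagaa
CATSPER2: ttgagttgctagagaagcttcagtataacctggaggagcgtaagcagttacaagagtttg
CATSPER3: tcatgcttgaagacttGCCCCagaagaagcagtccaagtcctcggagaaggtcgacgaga
CATSPER4: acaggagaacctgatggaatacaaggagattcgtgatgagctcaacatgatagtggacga
KCNU1: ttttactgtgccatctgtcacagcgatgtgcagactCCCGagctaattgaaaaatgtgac
HVCN1 probe 1: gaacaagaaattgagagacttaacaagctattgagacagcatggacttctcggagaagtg
HVCN1 probe 2: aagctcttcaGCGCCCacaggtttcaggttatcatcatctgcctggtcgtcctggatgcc

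In the cattle build Btau_3.1 that the array file gives, the CATSPER1 probe lay on the minus strand at chr29:46002786-46002974, a span of 189 bases. The CATSPER4 probe, at chr2:131157753-131158130 on the minus strand, covered 378 bases of genome. HVCN1 probe 2, at chr17:57276209-57280566 on the minus strand, covered 4358 bases. These 3 spans, as the array file gives them, are longer than the 60 bases of the probe. The CATSPER2 probe at chr21:55825127-55825186 (minus strand), the CATSPER3 probe at chr7:45649186-45649245 (plus strand), the KCNU1 probe at chr27:34407626-34407685 (plus strand) and HVCN1 probe 1 at chr17:57269820-57269879 (minus strand) each had a span of 60 bases. Over the whole set, 278 probes had coordinates, and 51 of them spanned more than 100 bases.

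The array of low-fertile pool 2 stood apart from the other 3. A probe is called well above background when the scanner software marks its spot so, from the spot's signal and the local background. Over all 51282 probes, 45.4%, 45.3% and 50% were well above background on high-fertile pool 1, high-fertile pool 2 and low-fertile pool 1, against 25.4% on low-fertile pool 2. The SD of the negative control spots was 126 signal units on that array and between 1.94 and 27.8 on the other 3. The 75th percentile of the processed signal, which sets the zero of every log2 value below, was 36.7, 37.1, 37.0 and 32.7 in the same order of pools. The groups occupied different rows of the single slide, so that slide row and group cannot be told apart.

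Markers fixed by cell type were read on the same arrays. Of 16 sperm genes, 4 were well above background on all 4 arrays, with outer dense fibre gene ODF1 and acrosin (ACR) among them, and 5 on none: AKAP3, AKAP4, CRISP2, SMCP and LDHC. The sperm sum, in linear signal and multiples of the 75th percentile, was 26.9 and 23.4 in high-fertile pools against 22.8 and 24.4 in low-fertile pools. Of the 8 sperm genes tested, the protamine PRM1 passed (0.67, adjusted p = 0.0231); the other 7 did not, with SPAM1 at -0.48, ODF1 at -0.18 and ACR at 0.03, and the median over the 8 was -0.0061. By the brightest probe of each, 6 of 10 leukocyte genes were well above background on all arrays, and the summed linear signal of the 10, in multiples of the 75th percentile, was 720 and 698 in high-fertile pools against 835 and 930 in low-fertile pools. PTPRC, the leukocyte surface phosphatase, rose by 0.78 log2 units in low-fertile pools (adjusted p = 0.0160) and CD3D, a T cell receptor chain, fell by 1.05 (adjusted p = 0.0102), both by limma with Benjamini-Hochberg adjustment. Of 9 leukocyte genes tested the others did not pass, at -0.09 (FCER1G) to 0.42 (CSF1R), and CD3E was on no array. LYZ, at 0.38 and not past the threshold, was the brightest of the list, followed by PTPRC and CD3D. Of 7 epithelial genes, 5 (KRT8, KRT18, KRT19, KRT5 and CLDN4) were well above background on all 4 arrays, and EPCAM and CDH1 on none. The epithelial sum was between 23.9 and 28.4, and none of the 5 passed. The red cell sum was between 5.38 and 8.71, and the sum of the neuron and muscle genes between 19.0 and 24.8. The haemoglobin gene HBB, well above background in 1 of the 2 high-fertile pools and both low-fertile pools, rose by 1.24 (adjusted p = 0.0117), the synaptic vesicle gene SYP by 0.75 (adjusted p = 0.0358) and the muscle gene DES by 0.69 (adjusted p = 0.0206). None of the 6 neuron and muscle genes tested fell, and of those that did not pass RBFOX3 gave -0.44 (adjusted p = 0.0738) and SNAP25 -0.27 (adjusted p = 0.198). HBA, the other haemoglobin gene, gave -0.17 (adjusted p = 0.705). The part of these cells in the channel signals was not tested.

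Many ion channel probes were dim. Of the 283 probes, 148 (52.3%) were well above background in high-fertile pool 1, 139 (49.1%) in high-fertile pool 2, 163 (57.6%) in low-fertile pool 1 and 83 (29.3%) on the array of low-fertile pool 2. Both high-fertile arrays had 126, beside 40.3% of all probes, and both low-fertile arrays 82, beside 25.1%. On all 4 arrays 78 probes (27.6%) were well above background, beside 24.5% of all probes of the array. On no array 102 probes (36%) were, beside 42.7% of all probes. A further 31 probes passed on exactly 1 array, 26 on 2 and 46 on 3, and 43 of these last missed the mark on low-fertile pool 2 only. Counted by gene, 67 of the 156 genes had a probe well above background on every array and 27 had none on any.

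**Figure D1:**
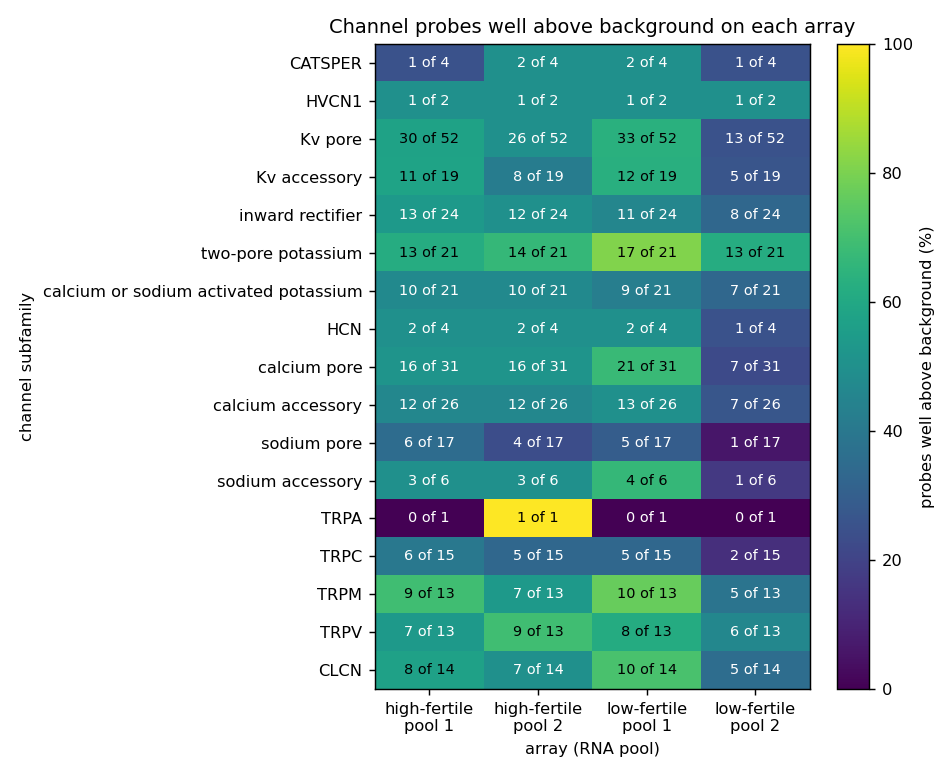
Channel probes well above background on each array, by subfamily. Rows are the 17 subfamilies, columns the 4 RNA pools, the colour gives the percent of the subfamily's probes and the text the count; KCNK leak channels ("two-pore potassium", 13 of 21 probes even on low-fertile pool 2) kept a high share, while sodium pore probes (1 of 17 on that array) did not.

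The KCNK leak potassium channels held the largest share of probes that were well above background on every array among subfamilies of more than 4 probes, 12 of 21 (57.1%). TRPV channels followed with 6 of 13 (46.2%), TRPM with 5 of 13 (38.5%) and CLCN with 5 of 14 (35.7%). The inward rectifiers (KCNJ) had 8 of 24 (33.3%) and the pore subunits of voltage-gated potassium channels 13 of 52. The lowest shares were those of the sodium channel pore subunits, with 1 of 17 (5.88%), and of TRPC, with 2 of 15 (13.3%). In the TRPC group 8 of 15 probes, and in the sodium pore group 11 of 17, were on no array.

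Of the 4 CatSper pore genes, only CATSPER1 was well above background on every array. CATSPER1 read 0.90 and 0.11 in high-fertile pools against 1.07 and 1.07 in low-fertile pools, in log2 units relative to each array's 75th percentile. Both low-fertile pools were above both high-fertile pools, but the high-fertile pools lay further apart from each other than pool 1 lay from the low-fertile pools. The difference, low-fertile minus high-fertile, was 0.57 ± 0.28 (SE) and did not pass (limma, adjusted p = 0.180). It moved with the high-fertile pool left out, to 0.17 without pool 2 (adjusted p = 0.603) and to 0.96 without pool 1 (adjusted p = 0.0435). In such a fit the group left with 1 pool is assumed to vary like the other group. With all pools, the CATSPER1 difference was 0.20 against spike-in probes and 0.32 after correction for base content. Under the normexp background correction it was also 0.32, and it passed in none of these. CATSPER3 passed the background mark on high-fertile pool 2 (-0.40) and low-fertile pool 1 (-0.69) only, and at -1.11 and -0.73 the other pools did not. CATSPER2 and CATSPER4 were on no array, with signals between -3.36 and -2.13 for both. No level can be given for these genes beyond that.

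KCNU1 was not well above background on any of the 4 arrays, at -1.88, -1.12, -1.98 and -1.86. The HVCN1 result came from a single probe. HVCN1 probe 2 read 0.79 and 0.25 in high-fertile pools against 0.42 and 0.70 in low-fertile pools. The groups overlapped, and the difference of 0.04 ± 0.23 did not pass (adjusted p = 0.908). Under other normalizations this small value took the other sign (-0.33 against spike-in probes, -0.24 after correction for base content). HVCN1 probe 1, from the same gene, was on no array. The signals of these genes on each array are set out in the plot of sperm channels and partner genes.

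**Figure D2:**
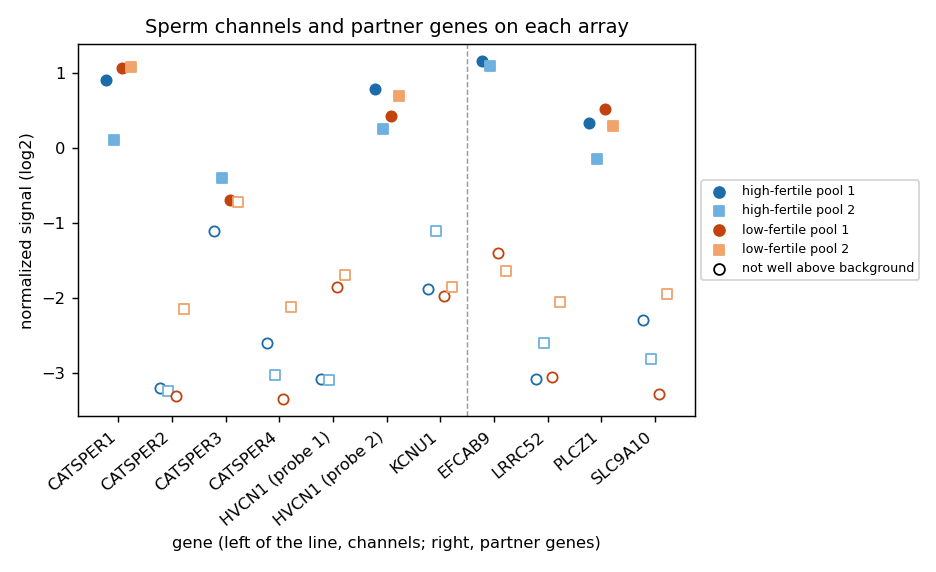
Normalized signal (log2, relative to the 75th percentile of the array) of the CatSper, HVCN1 and KCNU1 probes and of 4 partner genes, 1 point per array, filled where the spot was well above background. CATSPER1 and HVCN1 probe 2 are filled on all 4 arrays; EFCAB9 is filled on both high-fertile arrays only, at 1.16 and 1.09, with the low-fertile arrays at -1.40 and -1.64.

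Among the genes that work with these channels in sperm, EFCAB9, the calcium-sensing auxiliary protein of CatSper, was lower in low-fertile pools. EFCAB9 read 1.16 and 1.09 in high-fertile pools against -1.40 and -1.64 in low-fertile pools, where it was not well above background. It was at least 5.31-fold lower (adjusted p = 0.00220). A bound of this kind sets the bright group's mean against, on each dim array, the probe's own signal or the lowest signal well above background there, whichever is higher. A second EFCAB9 probe read -0.10 and 0.30 against -0.94 and -0.82, again not well above background in low-fertile pools, and was at least 1.97-fold lower (adjusted p = 0.0167). The third was dim on all arrays. Both tested probes entered the test through the high-fertile pools only.

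Of 36 such partner gene names listed by role, with SLC9A10 and SLC9C1 standing for the same gene, 29 were on the array, 23 were tested, 4 fell (beside 16.6% of all gene names) and 2 rose (beside 9.53%). These 6 of 23 stood beside 26.1% of all gene names called, and the median difference over the 23 was 0.06. Besides EFCAB9, the chloride channel CFTR fell by 1.06 (adjusted p = 0.0339) and the calcium release channel RYR2 by 0.68 (adjusted p = 0.0320), each not well above background on low-fertile pool 2. Another RYR2 probe, well above background on 1 array of each group and not tested, gave 0.70, on the opposite side of 0. The bicarbonate cotransporter SLC4A4, at its brightest tested probe, was well above background in high-fertile pools only and at least 1.70-fold lower in low-fertile pools (adjusted p = 0.0184). Another SLC4A4 probe, well above background on high-fertile pool 2 and low-fertile pool 1 and not tested, gave 0.40. ITPR1, the inositol trisphosphate receptor that releases stored calcium, rose by 1.03 (adjusted p = 0.0136), and ATP2B4, the plasma membrane calcium pump of the sperm tail, by 0.53 (adjusted p = 0.0461). Of 4 tested ITPR1 probes, 3 gave 1.03, 0.64 and 0.96, all past the threshold, and a dimmer one gave -0.73 and did not pass (adjusted p = 0.402). PLCZ1, the egg-activating phospholipase, was well above background on all arrays and did not pass (0.32 ± 0.21, adjusted p = 0.308). LRRC52, the KCNU1 auxiliary subunit, and the sodium-proton exchanger SLC9A10 were on no array.

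For the comparison of low- with high-fertile pools, a probe was tested when some group had it well above background in both of its pools. This held for 130 of the 283 channel probes, in 103 genes, beside 41% of all probes of the array; the other 53 genes were not tested. Past an adjusted p of 0.05 (limma, Benjamini-Hochberg over all 21028 probes tested) there were 32 channel probes, or 24.6%, beside 26.8% of all probes tested. Lower in low-fertile pools were 19, beside 17.6% of all probes, and higher were 13, beside 9.23%. By the brightest tested probe of each gene, 26 of 103 genes passed (25.2%, beside 26.1% of all gene names), 14 lower (beside 16.6%) and 12 higher (beside 9.53%). The channel share called was thus near that of the array. The median difference over the 130 tested probes was 0.10, beside -0.0046 over all tested probes. Scaled to spike-in probes, the channel median turned to -0.27, beside -0.38 over all tested probes. After correction for base content it was -0.087, beside -0.13. Under the normexp background correction it was 0.03, beside -0.013.

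The direction of the calls followed how a probe entered the test. Of the 78 probes that passed the background mark everywhere, 7 were lower and 10 higher, and 55 of the 78 had a positive difference; the median was 0.21, beside 0.15 over all such probes of the array. Calls made up 21.8% of these 78 probes, beside 23.1% of the array, with lower calls at 9.9% and higher calls at 13.2% of the array. Of the 48 probes that were well above background on both arrays of the high-fertile group only, 12 were lower and 0 higher, beside 30.1% and 1.38% of such probes over the array. Of the 4 that entered through the low-fertile group only, 3 were higher and 0 lower, beside 50.3% and 0%. A probe that enters through 1 group is high there by construction. Of the 48 probes, 43 were also well above background on low-fertile pool 1 and missed the mark on low-fertile pool 2 alone.

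In all 32 called probes the pools of the groups did not overlap; this was so in 97 of the 130 tested channel probes (74.6%), beside 69.1% of all tested probes. Over all 283 channel probes it was so in 150, beside 49% of the array. At an unadjusted p under 0.05 there were 55 of the 130, beside 41.6% of all tested probes. Without low-fertile pool 2 the count was 19, of which 18 were among the 32, and it ranged from 13 to 24 when each pool was left out in turn. Scaled to spike-in probes, 40 were lower and 6 higher, beside 32.1% and 2.75% of all tested probes, and with testing limited to the 78 probes on all arrays 10 were lower and 16 higher, beside 13% and 21.6%. With the methods' t-test, 37 channel probes passed before adjustment, beside 28.9% of the array's tested probes, and 0 after Benjamini-Hochberg adjustment.

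Of the 87 potassium channel genes, 55 were tested, and by their brightest probe 9 fell and 4 rose. Here and for each group of genes below, the counts stand beside 16.6% of all gene names lower and 9.53% higher by the brightest probe, and the potassium channel counts were near these shares. KCNA1, a pore subunit of the delayed rectifier class, had the largest fall of the set. KCNA1 read 1.90 and 2.02 in high-fertile pools against -0.08 and 0.05 in low-fertile pools, and it was well above background on all 4 arrays. The difference was -1.98 ± 0.15 (adjusted p = 0.00223), which put the low-fertile level at 0.254 of the high-fertile level; under the normexp background correction, which compresses dim signals, it was -1.01 and passed. KCNK2, a leak channel opened by stretch and lipids, read 2.25 and 2.25 against 1.05 and 0.87, a difference of -1.28 ± 0.15 (adjusted p = 0.00430). In both genes the pools of a group lay much closer to each other than to the other group.

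KCNS3 and KCNAB1 were chosen after their values were seen. KCNS3 is a silent subunit that modifies other voltage-gated potassium channels. It read 1.40 and 1.17 in high-fertile pools against -0.49 and -0.52 in low-fertile pools, the last not well above background, and fell by 1.79 (adjusted p = 0.00264). The related silent subunit KCNS2 read 1.28 and 1.06 against 0.47 and 0.49, a fall of 0.69 (adjusted p = 0.0266) that did not pass when any pool was left out (-0.58 to -0.80). KCNS1, the third gene of the KCNS group, did not pass, at 0.21 ± 0.15 (adjusted p = 0.338).

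KCNAB1, a cytoplasmic beta subunit that speeds the closing of potassium channels, was read by a pair of overlapping probes, shown here because they share 42 of 60 bases, in capitals, and so are not independent readings of the gene.
KCNAB1 probe 1: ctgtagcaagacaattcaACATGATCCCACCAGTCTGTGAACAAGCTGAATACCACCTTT
KCNAB1 probe 2: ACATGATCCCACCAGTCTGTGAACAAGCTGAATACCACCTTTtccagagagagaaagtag
The probes lay on the minus strand at chr1:113303692-113303751 and chr1:113303674-113303733. Probe 1 read 0.82 and 1.11 in high-fertile pools against -0.16 and -0.68 in low-fertile pools, a difference of -1.39 ± 0.23 (adjusted p = 0.0105). Probe 2 read 0.88 and 1.45 against -0.58 and -0.69, a difference of -1.79 ± 0.22 (adjusted p = 0.00514). On low-fertile pool 2 neither was well above background. Probe 1 did not pass without high-fertile pool 2 (-1.24).

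KCNMA1, the large-conductance potassium channel gated by calcium and voltage, read 1.26 and 1.45 in high-fertile pools against 0.35 and 0.69 in low-fertile pools. It fell by 0.84 (adjusted p = 0.0240), while its second probe gave -0.21 ± 0.25 and did not pass (adjusted p = 0.549). KCNH2, the delayed rectifier of the heart, read 2.36 and 2.43 against 1.63 and 1.88, a fall of 0.64 (adjusted p = 0.0359). A second KCNH2 probe that shares 54 bases with the first was well above background on low-fertile pool 1 only, was not tested, and read -1.83 and -1.54 against -0.56 and -0.48. The pair thus lay on opposite sides, and the KCNH2 fall rests on 1 probe. Neither KCNMA1 (-0.93 to -0.67) nor KCNH2 (-0.67 to -0.52) passed without low-fertile pool 1 or either high-fertile pool.

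KCNB2 and KCNH7, further voltage-gated pore subunits, were well above background on both high-fertile arrays and neither low-fertile array. KCNB2 read -0.41 and -0.35 against -1.21 and -2.04, at least 1.75-fold lower in low-fertile pools (adjusted p = 0.0291). KCNH7 read -0.80 and -0.65 against -1.37 and -2.02, at least 1.46-fold lower (adjusted p = 0.0372). Without either high-fertile pool KCNB2 (-1.27 and -1.22) and KCNH7 (-1.05 and -0.90) did not pass, and KCNH7 did not without low-fertile pool 2 (-0.65). KCNH7 was also lost under the normexp background correction (-0.17), and both were lost when the 75th percentile was taken over probes detected on all arrays (-1.21 and -0.94).

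On the other side, KCNK5, a leak channel opened by alkaline pH outside the cell, read 1.50 and 1.24 in high-fertile pools against 2.54 and 2.66 in low-fertile pools. It rose by 1.23 ± 0.16 (adjusted p = 0.00613), 2.35-fold. KCNK15, a relative of the acid-sensitive leak channels that was chosen after its values were seen, read -1.33 and -0.93 against 0.14 and 0.17, a rise of 1.29 ± 0.18 (adjusted p = 0.00726), with high-fertile pool 1 not well above background. KCNK12 was called by 1 of its probes (-0.53, adjusted p = 0.0450) and gave 0.05 ± 0.15 at its brighter probe, and the call was lost with any pool left out (-0.58 to -0.48). Of the 12 KCNK genes tested, 1 was lower and 2 were higher, near the shares of the array.

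KCNQ3, a subunit of the slow M current, read 2.12 and 2.42 against 2.86 and 3.06 and rose by 0.69 (adjusted p = 0.0387). KCNE1L, listed today as KCNE5, an accessory subunit that damps KCNQ1 currents, read -0.15 and -0.32 against 0.41 and 0.54, a rise of 0.71 (adjusted p = 0.0247). Against spike-in probes neither passed (0.32 for KCNQ3, 0.34 for KCNE1L). KCNQ3 did not pass without any 1 of the pools (0.54 to 0.85), and KCNE1L passed only with low-fertile pool 1 as the pool left out (0.62 to 0.80 without the others). No inward rectifier passed by its brightest probe. KCNJ15 had the largest difference of that group, 1.25 ± 0.50 (adjusted p = 0.120), with high-fertile pools at 0.80 and -0.80 and low-fertile pools at 1.24 and 1.26. The gap between the high-fertile pools was wider than that difference, which was 0.45 without high-fertile pool 2 (adjusted p = 0.208) and 2.05 without high-fertile pool 1 (adjusted p = 0.0154). KCNJ6, a G protein-gated rectifier, gave 0.55 at 1 probe (adjusted p = 0.0445) and -0.49 at its brighter probe (adjusted p = 0.0567); the first did not pass with any pool left out (0.48 to 0.62), against spike-in probes (0.18) or under normexp (0.17).

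Of the 22 calcium channel genes, 18 were tested, and 3 fell and 3 rose, beside 16.6% lower and 9.53% higher over all gene names. Of 11 accessory genes tested 3 fell and 2 rose, and of 7 pore genes 1 rose; the groups were not tested against each other. Accessory subunits steer the pore subunits to the membrane and tune their opening. The study picked CACNB4, CACNG6, CACNG1 and CACNG2 out of the same arrays, so their directions are not independent evidence. CACNB4, a beta subunit, is represented by a pair of overlapping probes, printed because 42 of the 43 bases they share by position match and capitals mark the longest identical run of 37.
CACNB4 probe 1: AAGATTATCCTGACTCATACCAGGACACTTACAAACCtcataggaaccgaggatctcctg
CACNB4 probe 3: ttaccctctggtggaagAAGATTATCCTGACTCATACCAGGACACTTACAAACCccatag
The probes lay on the plus strand at chr2:46476609-46476668 and chr2:46476592-46476651. Probe 3 read 0.97 and 0.93 in high-fertile pools against -0.23 and -0.66 in low-fertile pools, a difference of -1.40 ± 0.19 (adjusted p = 0.00648). Probe 1 read 0.60 and 0.68 against -0.48 and -0.65, a difference of -1.20 ± 0.15 (adjusted p = 0.00508). Neither was well above background on low-fertile pool 2. CACNB4 probe 2, at chr2:46427133-46427192 on the plus strand, did not pass the background mark on any array.

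CACNB1, the beta subunit of the skeletal muscle calcium channel, read 1.52 and 1.53 against 0.87 and 1.02 and fell by 0.58 (adjusted p = 0.0380). It did not pass when any of the 4 pools was left out (-0.65 to -0.50). CACNG6, a gamma subunit, read 0.05 and -0.92 against -1.56 and -2.20, at least 1.90-fold lower in low-fertile pools (adjusted p = 0.0421). The CACNG6 call was lost without high-fertile pool 1 (-0.96) and without low-fertile pool 2 (-1.12), and it passed in 7 of the 14 settings listed at the end.

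CACNG1, the gamma subunit of the same muscle channel, read 3.86 and 3.73 in high-fertile pools against 4.87 and 5.01 in low-fertile pools. It rose by 1.14 ± 0.15 (adjusted p = 0.00590), 2.21-fold, from signals of 534 and 493 units to 1081 and 1053. Of the muscle markers DES rose, as given above, while ACTA1 (0.19, adjusted p = 0.481) and MYH7 (0.42, adjusted p = 0.107) did not pass and TNNT2 was on no array. CACNG2, known from its work on glutamate receptors in the brain, was well above background in low-fertile pools only, at -1.12 and 0.14 against -2.68 and -2.20. It was at least 3.04-fold higher in low-fertile pools (adjusted p = 0.0260), and the call was lost without either high-fertile pool (1.70 and 2.18). The bound was 1.96-fold without low-fertile pool 2 and 4.70-fold without low-fertile pool 1.

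CACNA1I, a low-voltage-activated T-type pore subunit, was the only calcium pore gene past the threshold of 7 tested, by 1 of its 2 tested probes. The probes are shown because they differ in base content; capitals mark runs of 4 or more G or C.
CACNA1I probe 1: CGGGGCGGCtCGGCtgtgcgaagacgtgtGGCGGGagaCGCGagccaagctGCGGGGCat
CACNA1I probe 2: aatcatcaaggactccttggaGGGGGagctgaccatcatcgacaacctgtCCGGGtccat
Probe 1, at chr5:118217716-118217775 on the plus strand, holds 73.3% G and C, and probe 2, at chr5:118248809-118248868 on the plus strand, 55%. Probe 1 read -0.53 and -1.65 in high-fertile pools against 1.01 and 0.74 in low-fertile pools, a difference of 1.96 ± 0.37 (adjusted p = 0.0166), with high-fertile pool 2 not well above background. Probe 2 read -0.66 and -1.03 against -0.80 and -0.57, a difference of 0.16 ± 0.19 (adjusted p = 0.549). The difference at probe 1 did not pass after correction for base content (1.62) or without low-fertile pool 1 (1.82).

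Other calcium pore genes were read without passing. CACNA1B, the presynaptic N-type subunit, read 3.90 and 3.80 against 3.49 and 3.63, a difference of -0.29 ± 0.15 (adjusted p = 0.197). CACNA1H, a T-type subunit studied in male germ cells, gave 0.51 ± 0.17 (adjusted p = 0.0754) at 1 tested probe. Its other tested probe gave -0.08 and did not pass. CACNA1A, the gene with most probes, had 9, of which 5 were tested, 4 positive and 1 negative, and none passed. CACNA1B, CACNA1H and CACNA1A were named after their values were seen.

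A probe for the accessory gene CACNA2D3 stood out on a single array. It read -3.01, -1.92 and -1.49 on high-fertile pools 1 and 2 and low-fertile pool 1, none well above background, and 6.33 on low-fertile pool 2. On that array 4 of its 6 nearest spots were also more than 2 log2 units from their usual level. The probe was not tested, since it passed on 1 array only. Another CACNA2D3 probe gave -0.23 ± 0.16 (adjusted p = 0.314). Of the channel probes, 6 had at least 2 such neighbours on some array, and none of the 32 called probes was among them.

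Of the 12 sodium channel genes, 7 were tested, and 1 rose and 1 fell, near the shares of the array. SCN2B, an adhesion-like accessory subunit, read 4.96 and 4.92 against 5.63 and 5.73 and rose by 0.74 (adjusted p = 0.0175). SCN8A, a pore subunit of nerve axons, read -0.09 and 0.04 against -0.70 and -0.54 and fell by 0.60 (adjusted p = 0.0387), with low-fertile pool 2 not well above background. SCN2B did not pass against spike-in probes (0.37), without either high-fertile pool or without low-fertile pool 2 (0.68 to 0.76), and SCN8A did not pass without any 1 of the pools (-0.68 to -0.52). Among the other pore genes tested, SCN11A gave 0.27 and SCN1A gave 0.0053, and neither passed.

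Of the 20 TRP genes, 13 were tested, and by their brightest probe 3 rose and 1 fell, beside 9.53% higher and 16.6% lower over all gene names. TRPV channels pass calcium in response to heat, swelling or ligands; 4 of the 6 were tested and 3 rose, and whether they differ from the other TRP genes was not tested. TRPV2 read 2.97 and 2.81 in high-fertile pools against 3.61 and 3.79 in low-fertile pools, a rise of 0.81 ± 0.16 (adjusted p = 0.0173). Its second probe, which shares 42 bases with the first, gave 0.57 ± 0.16 (adjusted p = 0.0540). TRPV4, opened by osmotic swelling, read 2.49 and 2.42 against 2.94 and 3.11, a rise of 0.57 (adjusted p = 0.0432), and its second probe gave -0.09 (adjusted p = 0.754). TRPV6, the calcium uptake channel of epithelia and epididymis, read 0.43 and 0.48 against 0.93 and 1.05 and rose by 0.54 (adjusted p = 0.0455). TRPV1, the capsaicin receptor, gave 0.45 and -0.13 at its tested probes and did not pass. The calls of TRPV2, TRPV4 and TRPV6 were lost against spike-in probes (0.44, 0.20 and 0.16) and after correction for base content (0.68, 0.32 and 0.26). They were also lost when a pool was left out, TRPV4 (0.48 to 0.65) and TRPV6 (0.47 to 0.60) for any of the pools and TRPV2 (0.72 to 0.89) for all but low-fertile pool 1.

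TRPC1, a subunit of receptor-operated cation channels, was well above background on both high-fertile arrays, at -0.86 and -0.91, and on neither low-fertile array, at -2.56 and -2.41. It was at least 1.82-fold lower in low-fertile pools (adjusted p = 0.00277), and the call was lost under the normexp background correction (-0.18). TRPC2, in mice a sensory channel of the vomeronasal organ, gave 0.46 ± 0.16 and did not pass (adjusted p = 0.0846); it was named after its values were seen. TRPC4 was called by its dimmer probe (-0.64, adjusted p = 0.0478) and not by its brighter one (-0.14, adjusted p = 0.571), and the call was lost with any pool left out (-0.77 to -0.51).

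No TRPM gene passed of 5 tested. TRPM7, a channel fused to a kinase, had the largest difference, -1.20 ± 0.47 (adjusted p = 0.115), with high-fertile pools at 0.78 and 0.81, low-fertile pool 1 at 0.34 and low-fertile pool 2 at -1.15 and below the background mark. The difference was -0.45 without low-fertile pool 2 (adjusted p = 0.141). It was -1.94 without low-fertile pool 1 (adjusted p = 0.00503), where the group is left with the array that stood apart. TRPA1 was well above background on high-fertile pool 2 only and was not tested.

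Of the CLCN and HCN genes, 8 of 10 were tested, and 1 rose, beside 9.53% of all gene names. CLCN7, the chloride-proton exchanger of lysosomes, read 0.52 and 0.63 against 1.38 and 1.53 and rose by 0.88 ± 0.15 (adjusted p = 0.0118), a call lost without either high-fertile pool (0.82 and 0.93) and after correction for base content (0.61). The other 5 CLCN genes tested lay between -0.19 (CLCN2) and 0.58 (CLCN6). HCN3, a hyperpolarisation-activated pacemaker channel, gave -0.22 ± 0.15 and did not pass (adjusted p = 0.312).

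Probes of the same gene did not always give the same answer. Of 23 channel genes with at least 2 tested probes, 13 had all of them on 1 side of 0. Of the 10 such genes with a called probe, 7 had all tested probes on 1 side. Only CACNB4 and KCNAB1 had 2 called probes, and these are the overlapping pairs shown above.

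**Figure D3:**
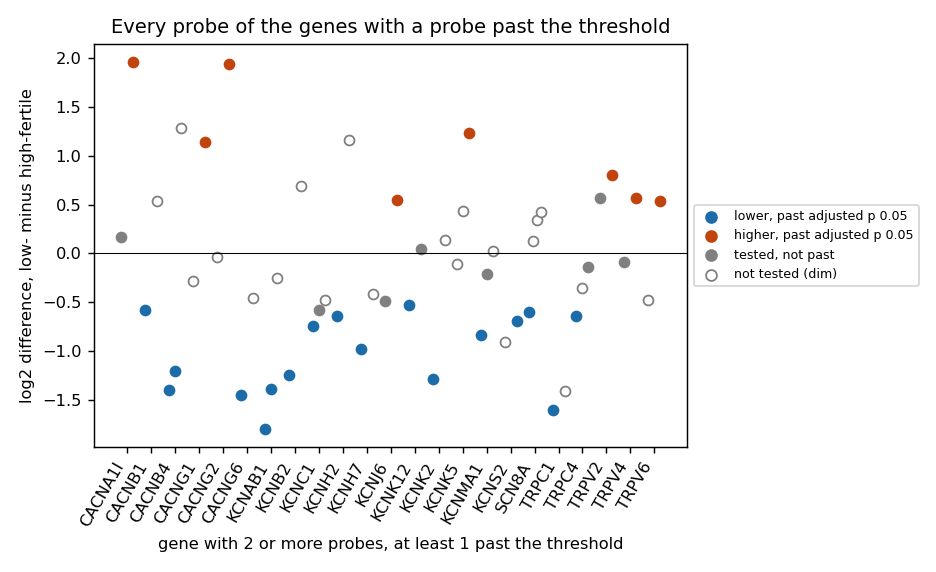
Difference (log2, low-fertile minus high-fertile) of every probe of the 23 channel genes with at least 2 probes and a called one, 1 point per probe. Filled points were tested, open points were too dim to test, and colour marks probes past an adjusted p of 0.05; 14 of the 23 genes have probes on both sides of 0 when untested ones are counted, CACNB4 and KCNB2 among them.

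The called probes differed in base content. The median share of G and C was 43.3% in the 19 lower probes, with a range of 35 to 55%, and 55% in the 13 higher probes, with a range of 28.3 to 83.3%. The tested probes that were not called had a median of 53.3%. Over the array the same order was seen, with medians of 41.7% in lower, 55% in higher and 45% in uncalled tested probes. Detection moved with base content as well, at a median of 55% in the 78 channel probes on all arrays and 41.7% in the 102 on none. After removal of each array's shift by base content, 15 channel probes passed, 11 lower (beside 12.5% of all tested probes) and 4 higher (beside 3.04%), and 14 of the 32 calls were retained. The 18 calls lost were those of CACNA1I, CACNB1, CACNG6, CLCN7, KCNB2, KCNC1, KCNE1L, KCNH2, KCNH7, KCNJ6, KCNQ3, KCNS2, SCN2B, SCN8A, TRPC4, TRPV2, TRPV4 and TRPV6. In 5 of these 18 (CACNG6, KCNC1, KCNH7, KCNJ6 and TRPC4) the difference was as large or larger after the correction, and in the other 13 it was smaller, down to 0.481 of its size. The part of base content in these differences was not tested further.

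**Figure D4:**
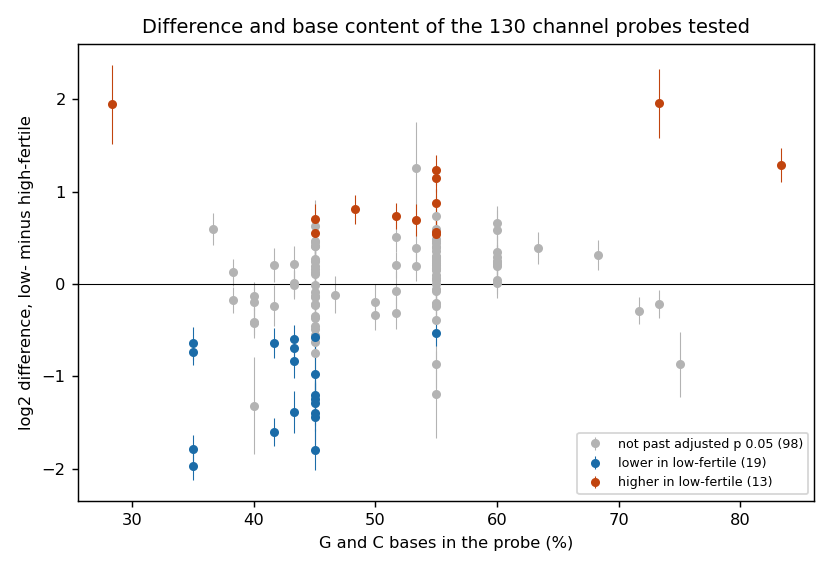
Difference (log2, low-fertile minus high-fertile; bars are the limma SE) of the 130 tested channel probes against the share of G and C bases in the probe. The 19 lower probes (blue) sit at 35 to 55% G and C; 10 of the 13 higher probes (orange) sit at 45 to 55%, with the others at 28.3%, 73.3% and 83.3%.

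The letters AATAAA, the commonest signal for the end of a transcript, were searched on the printed strand of each probe only. They occurred in 14 of 283 channel probes (4.95%) and in 8.35% of all probes of the array. Of these 14, 8 were well above background on all 4 arrays and 5 were called, all higher in low-fertile pools: CACNG2, CLCN7, KCNE1L, TRPV2 and TRPV4. Over the array 1126 of the 4284 probes with these letters were well above background on all 4 arrays. Of the 4284, 512 were called, 149 of them higher.

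Across 14 settings that kept both the probes under test and limma's pooled estimate of the spread, 9 of the 32 calls passed in all: 6 lower (KCNA1, KCNK2, KCNS3, both CACNB4 probes and KCNAB1 probe 2) and 3 higher (KCNK5, KCNK15 and CACNG1). These settings were each pool left out in turn, other scalings, background correction, base content correction, the pool number as a block, other variance and spot choices, and the value table of the authors. The sign of none of the 32 changed in any of them. Of the other calls, KCNAB1 probe 1 and TRPC1 passed in 13 settings, CACNA1I and CACNG2 in 12, CLCN7, KCNC1 and KCNMA1 in 11, KCNB2 and KCNH2 in 10, and KCNE1L, KCNS2, SCN2B and TRPV2 in 9. CACNB1, KCNH7, KCNK12 and KCNQ3 passed in 8, CACNG6, SCN8A, TRPV4 and TRPV6 in 7, and KCNJ6 and TRPC4 in 5. KCNA1, KCNK2, KCNK5 and CACNG1 were well above background on all 4 arrays and also passed when testing was limited to such probes. The other 5 of the 9 probes entered the test through 1 group only, where they are high by construction. With the methods' t-test on the same 130 probes, 0 of the 9 passed after adjustment (adjusted p = 0.0803 for KCNA1), and 0 passed when no filter on dim probes was set.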

How the data were processed

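The members and gene lists were chosen with earlier results of these data known. The authors scanned 4 one-colour Agilent bovine arrays with Feature Extraction 11.5.1.1 and deposited processed signals, a linear intensity per spot after background subtraction, and a table of log2 values that per the methods came from GeneSpring GX. From the deposited intensity, log2 of the processed signal minus the 75th percentile of each array over non-control probes was computed here; outlier spots were left out and spots of 1 probe averaged. Probes that the scanner software marked well above background in both pools of some group were tested with limma 3.58.1 (lmFit and eBayes, R 4.3.3), low-fertile minus high-fertile, with Benjamini-Hochberg adjustment over all 21028; a call is an adjusted p under 0.05. A gene is read from its brightest tested probe. A bound ("at least") sets the bright group's mean against, per dim array, the higher of the lowest signal well above background and the probe's own. Patches were spots with at least 2 of the 6 nearest spots over 2 log2 units off. The fit was run on simulated data whose spread followed its own model, which does not test the calls on these arrays. Partner gene values were computed in the same fit without alternatives. Coordinates are those of the array file (Btau_3.1); 212 probes matched a RefSeq accession, and 1 symbol was updated. Neither an annotation nor a genome of that build was used here, so exon and UTR positions are not given. The sequences are the deposited probe sequences.

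Genes were named by rule: the CATSPER genes, KCNU1, HVCN1, CACNB4, CACNG6, CACNG1 and CACNG2 whatever their values; up to 10 per direction with the largest called difference and signal on all arrays; up to 5 per direction with a bound; and the tested gene with the largest difference of each remaining subfamily. Every other channel gene named with a value was chosen after its values were seen. Precision is limited by the number of arrays, 2 per group. Alternatives were other normalizations, filters, spot choices, variance models, the deposited log2 table, the pool number as a block, each pool left out and a correction for probe base content in 50 bins, the last added with the data seen. Some members are counted in the totals, but their own values are not reported here.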

Additional observations from a re-analysis of the deposited data

How the results depend on the processing

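Counts of channel probes and genes past the threshold moved with the set of probes tested, the estimate of the spread, base content and the pools. With no filter on dim probes 0 channel probes and 0 genes passed limma's adjusted p (48 probes and 28 genes at an unadjusted p under 0.05), and with the software's weaker detection mark (positive and significant), which 232 channel probes met, 0 and 0 passed (57 and 34). The methods' t-test gave 0 and 0 after adjustment (37 and 30 before). Correction for base content gave 15 probes and 12 genes and a median difference of -0.087, beside -0.13 over all tested probes. With 1 pool left out, when only the other group gives a spread within the comparison, the counts were 13 to 24 probes and 10 to 20 genes, and the median 0.03 to 0.12. Scaling to spike-in probes, which lowered the median of all tested probes to -0.38, moved the channel median to -0.27. It gave 46 probes, 40 lower and 6 higher, beside 32.1% and 2.75% of all tested probes. The filter for signal on all 4 arrays gave 10 lower and 16 higher, beside 13% and 21.6%. Under normexp 27 of the 32 called differences moved by over 1.5 times, and the median was 0.421 of the reported size. HVCN1 changed sign against spike-in probes (-0.33), after base content correction (-0.24), and without high-fertile replicate 2 (-0.23) or low-fertile replicate 2 (-0.09), and ranged from -0.23 to 0.31 as each pool was left out. Why it did so was not tested. Entering the pool number as a block gave 29 probes and 24 genes; the numbers share only a label (the differences between pools 1 and 2 in the groups correlated at 0.0054 over 21023 probes). Reading a gene from the median of its tested probes gave 25 genes. Other summary counts stayed within 1.5 times the reported ones. Low-fertile pool 2, with the fewest probes above background, limits what could be tested.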
